A study of Bos taurus with 20 samples.

Results

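Smooth muscle cells build their contractile machinery from a small set of proteins, and the genes of 8 of them were followed here through all 20 arrays of a study of cattle skin. The genes are ACTG2, ACTA2, CNN1, MYH11, TAGLN, MYLK, SMTN and LMOD1, 8 of the 14719 genes named on the array. Probes were taken whose gene name was 1 of these symbols or whose description named the gene. The search found 12 probes, and the brightest probe stood for each gene. All 8 of these probes were well above background in all 11 animals, so all 8 genes were tested. RNA came from biopsies of the region of the skull where horns form, holding epidermis, dermis and dermal connective tissue. The animals were 4 polled cattle, which grow no horns (1 male, 3 females), 4 scurred cattle, which carry small loose horn-like growths (3 males, 1 female), and 3 horned cattle (2 males, 1 female). For polled animal 3 and scurred animal 2 there was also a control biopsy from the skull away from the horn site. The labels call the tissue skin, and breed, age and genotype are not given in the labels used here.

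Contraction of smooth muscle rests on myosin filaments pulling on actin. Calcium entering the cell binds calmodulin, which turns on myosin light chain kinase, and the phosphorylated light chain lets myosin heads cycle. Calponin and transgelin bind the thin filament, and leiomodin starts new actin filaments. In skin these proteins are found in the walls of blood vessels, in the arrector pili muscles of the hair follicles and around glands, and ACTA2 and TAGLN are also made by myofibroblasts and pericytes. In whole biopsies a lower signal from fewer smooth muscle cells and from less RNA per cell cannot be told apart.

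Probe identity bears on what these values measure, so the probes the results turn on are given here as the deposited files list them, 5′ to 3′. The ACTG2 and LMOD1 probes are shown whole, 60 bases each, as the gene with the clearest site difference and the dimmest gene. The MYH11 probe and the brighter pair of MYLK probes are shown by their last 30 bases. Capitals mark AATAAA, the usual signal that precedes the poly(A) tail.
ACTG2: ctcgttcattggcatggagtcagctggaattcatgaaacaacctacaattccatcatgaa
LMOD1: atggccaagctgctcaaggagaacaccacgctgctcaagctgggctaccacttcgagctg
MYH11, last 30 bases: ctgtacttaaggacaccctcactAATAAAa
MYLK, brightest probe, last 30 bases: agtcatattacaaagactatttctctaaag
MYLK, next brightest probe, last 30 bases: taaatgagaacactacaactgtagttagct
AATAAA, searched on the printed strand, lies in 1 of the 8 probes, starting at base 54 of the MYH11 probe, and in 11.8% of all 21475 probes. The actins are near-identical proteins, and a probe could in principle capture a relative. The longest run of letters that the ACTG2 probe shares with the ACTA2 probe is 6 bases, and it is 5 or 6 bases for the probes of ACTA1, ACTB, ACTG1 and ACTC1. These runs compare probe with probe, and not the ACTG2 probe with the other actin transcripts. They cannot show whether related transcripts were captured, and capture was not tested. Of the 4 probes that were not the brightest, the second ACTA2 probe and the second MYH11 probe were well above background in 0 of 11 animals. By its gene ID, RefSeq's table gives the former to ACTE1, and likewise gives the dimmest MYLK probe to MYLK4.

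Across the 11 animals the 8 genes varied more widely than most of the array. Levels here are log2 channel intensities, normalised so that arrays can be set side by side. The span from the lowest to the highest animal ran from 1.64 log2 units for LMOD1 to 3.58 for CNN1, against a median span of 0.99 over the 15712 probes tested. The CNN1 span is a 12-fold difference. Horned animal 1 had the highest level of 6 of the 8 genes, namely ACTG2, ACTA2, CNN1, TAGLN, SMTN and LMOD1. Scurred animal 1 had the lowest level of 7, shared with scurred animal 3 for LMOD1 at 6.87. SMTN alone was lowest elsewhere, in scurred animal 3. Taking each gene relative to its own median over animals, the median of the 8 was 1.35 in horned animal 1, 0.40 in horned animal 2 and −0.34 in horned animal 3. Polled animals 1 to 4 stood at −0.16, 0.04, 0.04 and 0.57. Scurred animals 1 to 4 stood at −0.88, 0, −0.32 and −0.04. By this median the 3 horned animals lay further apart than the 4 polled or the 4 scurred animals, with horned animal 3 below its gene's median for 8 of 8 genes and horned animals 1 and 2 above it for 8 of 8.

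**Figure D1:**
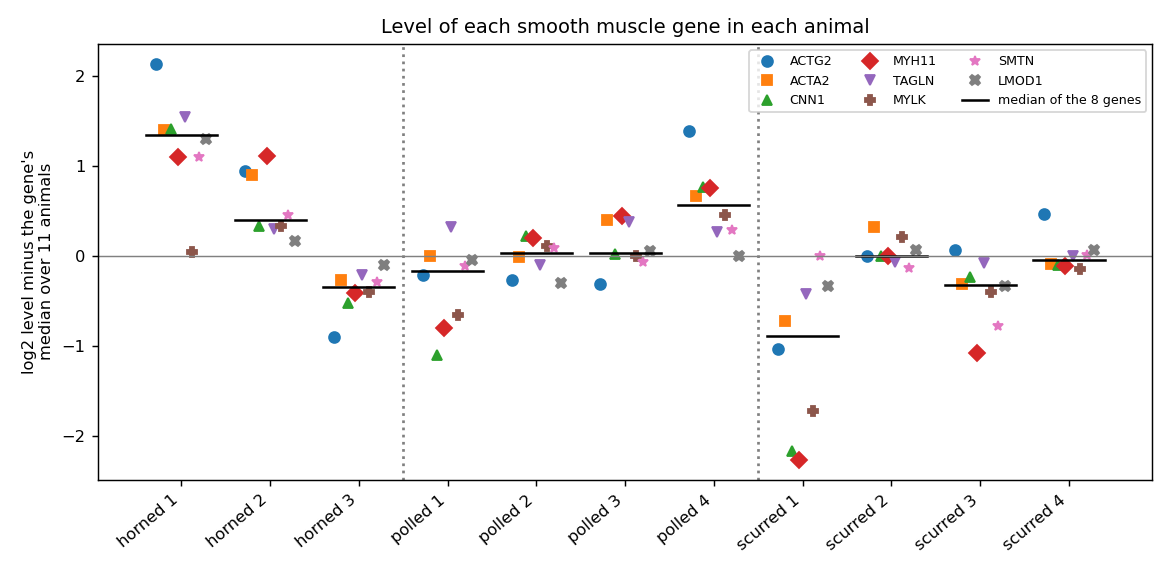
Log2 level of each of the 8 genes in each of the 11 animals, minus that gene's median over the animals; each symbol is 1 gene, black bars are the median of the 8 genes in an animal, and dotted lines part the horned, polled and scurred animals. Horned animal 1 lies highest (median 1.35), scurred animal 1 lowest (median −0.88), and horned animal 3 lies below 0 for all 8 genes.

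The genes moved together between animals. Over the 28 pairs of genes the Pearson correlation across the 11 animals ran from 0.328 (MYLK with SMTN) to 0.933 (TAGLN with LMOD1), with a median of 0.77. After each group's mean was taken out the median was 0.717. ACTA2 had the highest median correlation with the other 7 genes, 0.854, and MYLK the lowest, 0.623. These correlations describe 11 animals that share chips and normalisation, and animals 1 of the horned and scurred groups, at the high and the low end, weigh heavily in them.

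Polled against horned animals asks whether the horn-forming skin of hornless cattle differs from that of horned cattle. All 8 genes had a fitted difference below 0, with a median of −0.512 log2 against 0.0125 for all probes, yet none passed the test. The animals behind these values went opposite ways. Every difference is taken from the horned animal on the same chip. On chips 1 to 3 the polled and horned animals were of opposite sex, and horned animal 2 served both chips 2 and 4. The differences by animal are not adjusted for sex, while the fitted ones are. In polled animal 1 the 8 genes lay from −2.64 (CNN1) to −0.72 (MYLK) and in polled animal 2 from −1.09 (ACTG2) to −0.30 (MYLK), lower for 8 of 8 genes in both. In polled animal 3 the 8 lay from 0.13 (LMOD1) to 0.89 (MYH11), higher for 8 of 8. Polled animal 4 was split, with 4 genes lower and 4 higher, from −0.48 (MYH11) to 0.69 (CNN1).

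Of the filament proteins, MYH11, the heavy chain of smooth muscle myosin, differed from horned by −2.04, −0.90, 0.89 and −0.48 in polled animals 1 to 4. Its fitted difference was −0.82 (SE 0.578, adjusted p 0.675 by limma). ACTG2, the enteric gamma actin of smooth muscle, differed by −2.09, −1.09, 0.59 and 0.37, and its fitted difference was −0.66 (SE 0.625, adjusted p 0.767). ACTA2, the alpha actin of vascular smooth muscle, differed by −1.54, −0.95, 0.73 and −0.27, with a fitted difference of −0.66 (SE 0.435). For all 3 genes polled animal 3 stood above its horned partner and polled animals 1 and 2 well below theirs. Of the thin filament regulators, CNN1 (calponin) differed by −2.64, −0.31, 0.57 and 0.69, fitted −0.55 (SE 0.736). TAGLN (transgelin) was fitted at −0.38 (SE 0.407). LMOD1 (leiomodin) was fitted at −0.48 (SE 0.291, adjusted p 0.625), the lowest adjusted p of the 8, and at −0.848 (SE 0.487) with the scanner's processed signals or the deposited series table. SMTN (smoothelin, found in contractile smooth muscle) was fitted at −0.42 (SE 0.274) and MYLK, the kinase, at −0.28 (SE 0.34). With median centring TAGLN was at −0.604 and MYLK at −0.511, and without the sex term MYLK was at −0.182.

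No gene of the 8 was called at an adjusted p under 0.05 (limma, Benjamini-Hochberg over 15712 probes), where the array as a whole had 1 call, 0.00636% of probes. At an unadjusted p under 0.05 there were 0 of 8 against 9.3% of probes. A fitted value below 0 was found for 8 of 8 genes against 47.9% of probes. The genes moved together between animals, so in this count and those below they are not 8 separate observations. A lower value in every one of the 4 animals was found for 0 of 8 against 13.1%. The levels of polled and horned animals overlapped for 8 of 8 genes, and did not overlap for 9.59% of probes. Without chip 1 the median of the 8 was −0.0456, without horned animal 1 −0.0454, without polled animal 2 −0.131 and without chip 2 0.0379. It lay further from 0 without chip 3 (−0.901), horned animal 3 (−0.873) or horned animal 2 (−0.844).

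**Figure D2:**
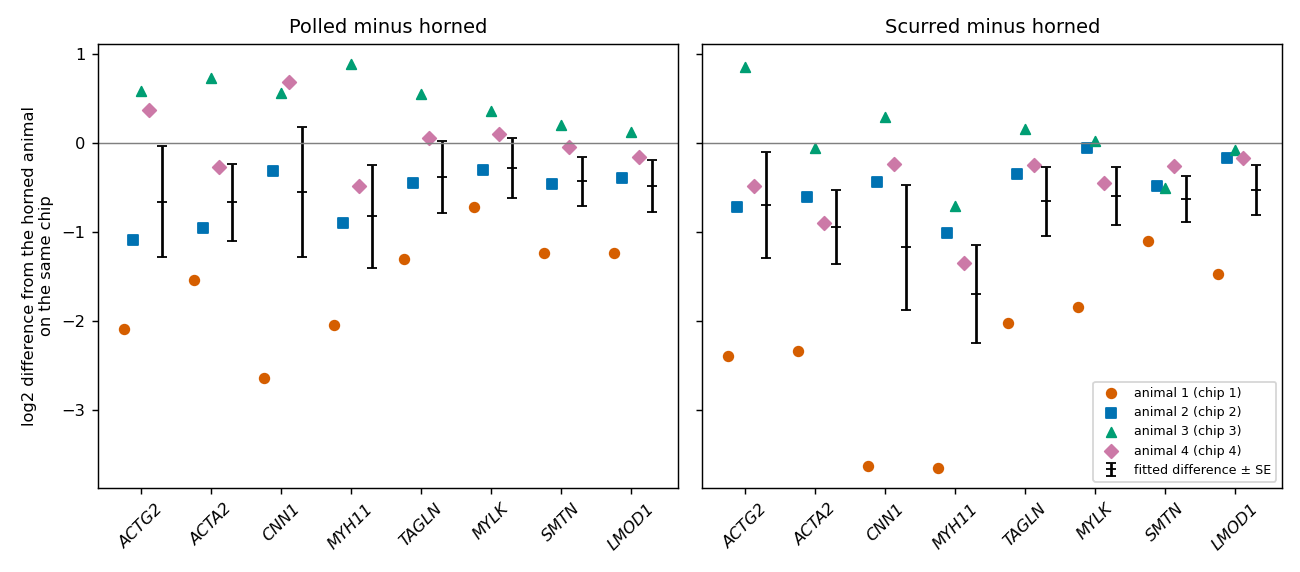
Log2 difference of each polled (left) and scurred (right) animal from the horned animal on its chip, for the 8 genes; symbols and colours are the 4 animals, and black bars are the fitted difference with its standard error. On chip 1 all 8 genes lie below 0 in both panels, polled animal 3 lies above 0 for 8 of 8 genes, and MYH11 is below 0 in all 4 scurred animals.

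Scurred against horned animals gave the lowest values of the horn-type comparisons, led by MYH11. MYH11 differed from the horned animal by −3.65, −1.01, −0.70 and −1.35 in scurred animals 1 to 4. It was the lowest of the 8 genes in 4 of 4 animals, while its levels still overlapped those of the horned animals (12.72 to 14.98 in scurred, 14.57 to 16.10 in horned). The fitted difference was −1.69 (SE 0.55), which is 3.22-fold lower, with a 95% interval of −2.99 to −0.39, an unadjusted p of 0.0177 and an adjusted p of 1 by limma. Of all 15712 probes, 0.0573% had a lower fitted difference. MYH11 therefore stood far out in size without passing the test over the array.

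The actins followed at smaller size. ACTA2 differed by −2.33, −0.60, −0.05 and −0.90 in scurred animals 1 to 4 and was fitted at −0.94 (SE 0.414, unadjusted p 0.0573 by limma). ACTG2 differed by −2.39, −0.71, 0.86 and −0.48 and was fitted at −0.69 (SE 0.595). The pair parted on chip 3, where ACTG2 was higher in the scurred animal and ACTA2 level with the horned animal. CNN1 differed by −3.63, −0.43, 0.30 and −0.23, fitted −1.17 (SE 0.7), so that scurred animal 1 lay far from the other 3. SMTN differed by −1.10, −0.48, −0.50 and −0.25, fitted −0.62 (SE 0.261, unadjusted p 0.0479). Its differences from the horned partners had the smallest spread of the 8 (SD 0.363, n = 4). TAGLN was fitted at −0.65 (SE 0.388), MYLK at −0.59 (SE 0.324) and LMOD1 at −0.52 (SE 0.277). LMOD1 was at −0.974 with the scanner's processed signals or the deposited series table.

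The median of the 8 was −0.671 log2 against 0.0062 for all probes, and all 8 adjusted p-values were 1. No gene was called, as for the array as a whole (0% of probes). MYH11 and SMTN, 2 of the 8, had an unadjusted p under 0.05, against 3.73% of probes, and both were lower. Fitted values below 0 were found for 8 of 8 genes against 48.5% of probes. ACTA2, MYH11, SMTN and LMOD1, 4 of 8 genes, were lower in every one of the 4 animals, against 9.71% of probes. The levels of the 2 groups overlapped for 8 of 8 genes, and did not overlap for 4.58% of probes. Chip 1, which was scanned on another day than the others, holds the animals at both ends. Without it the median was −0.0471 and MYH11 −0.758, and without horned animal 1 the median was −0.0842. Without scurred animal 1 it was −0.469. Without chip 3 it was −1.22 and without horned animal 3 −1.21.

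Scurred and polled animals met on the same chips as well. MYH11 was again lowest, with −1.61, −0.11, −1.60 and −0.87 on chips 1 to 4 and a fitted difference of −0.87 (SE 0.561, adjusted p 0.863 by limma). CNN1, at −0.98, −0.12, −0.27 and −0.92, was the other gene lower in all 4 pairs, fitted −0.62 (SE 0.714). ACTG2 was fitted at −0.03 (SE 0.606) with a 95% interval of −1.46 to 1.39, so a difference of either sign and over 1 log2 unit lies within its error. LMOD1 was fitted at −0.05 with an interval of −0.71 to 0.62. The remaining 4 genes lay from −0.31 (MYLK) to −0.20 (SMTN).

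The median of the 8 was −0.274. None was called (0% of probes) and 0 of 8 had an unadjusted p under 0.05, against 6% of probes. All 8 fitted values were below 0, against 51.7% of probes, and 2 of 8 genes were lower in every pair, against 9.43%. Levels overlapped for 8 of 8 genes, and did not overlap for 2.7% of probes. On all 4 chips one of these animals was male and the other female, and the fit held a term for sex. Chip 2 held the only male polled and the only female scurred animal. In any fit that left it out, all polled animals were female and all scurred animals male. Horn type and sex were then told apart only through the horned animals. Without chip 2 the median was −1.02 and without polled animal 2 −0.618. It was −0.121 without chip 1 or without horned animal 1, −0.148 without polled animal 3 and −0.0427 without scurred animal 1. The 3 comparisons share their animals, so their like signs are not separate observations.

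Males and females were compared in the same fit. Differences between male and female animals ran from −0.38 (ACTA2, SE 0.377) to 0.09 (CNN1, SE 0.638), and none exceeded its standard error. None was called, against 0.0191% of probes, and 0 of 8 had an unadjusted p under 0.05 by limma, against 2.09%. Fitted values were below 0 for 7 of 8, against 49.3%. The median of −0.147 turned to 0.508 without chip 2, 0.208 without polled animal 2, 0.0606 without horned animal 3 and 0.0339 without chip 3.

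Horn site against control site compared 2 biopsies of the same animal, in polled animal 3 and scurred animal 2. ACTG2 was lower at the horn site by nearly the same amount in both, −1.39 and −1.31. On the chip that held these biopsies its log2 level was 12.16 at the horn site and 13.55 at the control site of polled animal 3, and 12.51 and 13.82 in scurred animal 2. The 4 arrays gave −1.31, −1.46, −1.20 and −1.42. The mean of −1.35 (SE 0.117), 2.55-fold lower, had an unadjusted p of 0.001 by limma, rank 5 of 15290 probes, and an adjusted p of 0.962. ACTG2 was the lowest of the 8 genes in 2 of 2 animals.

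CNN1 came next with −1.29 and −0.84, mean −1.06 (SE 0.171, unadjusted p 0.00674 by limma). In scurred animal 2 the dye orders did not repeat each other for CNN1, giving −1.67 and −0.01. ACTA2 was −1.06 in polled animal 3 and −0.13 in scurred animal 2, mean −0.59 (SE 0.284). MYLK stood at −0.37 and −0.53 (mean −0.45, SE 0.124) and MYH11 at −0.33 and −0.41 (mean −0.37, SE 0.117). MYH11 was lowest of the 8 in scurred against horned animals and ACTG2 lowest at the horn site, a change of order that was not tested. TAGLN had a mean of −0.44 (SE 0.176) and SMTN of −0.27 (SE 0.15). LMOD1 had −0.22 and 0.09, opposite signs, with a mean of −0.07 (SE 0.145).

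The median of the 8 was −0.442 against −0.0089 for all probes. None was called at an adjusted p under 0.05 (0% of 15290 probes). ACTG2, CNN1, MYH11 and MYLK, 4 of 8, had an unadjusted p under 0.05 by limma, against 4.71% of probes. Mean values below 0 were found for 8 of 8 genes against 52.4% of probes, and values below 0 in both animals for 7 of 8 against 26.5%. With 2 animals the direction has little to rest on. The scaling also matters here. With arrays centred on the median in place of loess, the median of the 8 was −0.851, that of all probes −0.154, and LMOD1 turned to 0.0354. ACTA2 was then at −1.03, MYH11 at −0.791, TAGLN at −0.843, MYLK at −0.859 and SMTN at −0.634.

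**Figure D3:**
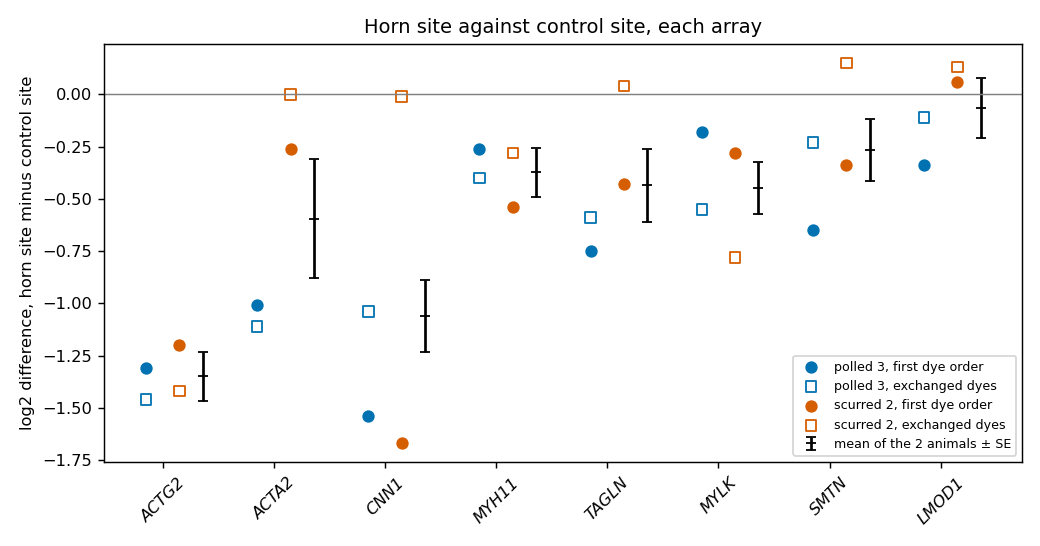
Log2 difference between horn site and control site for the 8 genes on each of the 4 arrays of chip 5; blue is polled animal 3, orange is scurred animal 2, filled and open symbols are the 2 dye orders, and black bars are the mean of the 2 animals with its standard error. ACTG2 lies between −1.46 and −1.20 on all 4 arrays, and CNN1 in scurred animal 2 lies at −1.67 with one dye order and −0.01 with the other.

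Agreement between arrays that measured the same pair of animals set the technical error. Polled against horned was hybridised with both dye orders on each of 4 chips, and the sign was the same in 28 of 32 pairs of values, with a median gap of 0.215 log2 and the widest, 0.95, for CNN1. For the site arrays the sign was the same in 13 of 16, with a median gap of 0.26 and the widest, 1.66, again for CNN1. Scurred against polled could be read directly or through the horned animal, with a median gap of 0.18 and the same sign in 27 of 32. Horned animal 2 was on chips 2 and 4, and its levels differed by a median of 0.09 between them, at most by 0.32 (CNN1). Polled animal 3 and scurred animal 2 were also on a further chip, which held the site arrays. Their ACTG2 levels there were 12.16 and 12.51, against 11.59 and 11.9 on the horn-type chips. Of the contractile genes, ACTG2 had the widest such gap in both animals. CNN1 had the widest gap between dye orders in both sets of arrays.

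MYLK was measured by 2 bright probes that gave unlike sizes. The brightest gave −0.72, −0.30, 0.36 and 0.11 for polled animals 1 to 4. The next brightest, described as transcript variant 5 of the gene, gave −1.84, −1.22, −0.10 and −0.87. Its fitted differences were −1.14 (SE 0.434, adjusted p 0.523 by limma) for polled and −1.38 (SE 0.413, adjusted p 1) for scurred against horned, where the brightest probe had −0.28 and −0.59. It lay below 0 in all 4 polled animals, and in scurred animals it gave −2.89, −0.91, −0.28 and −1.54. At the sites the 2 probes were alike, with −0.45 and −0.46. Their levels correlated at 0.878 over the 11 animals, which share chips and normalisation. The probe that RefSeq gives to MYLK4 lay between −0.13 and 0.06 in all 8 animals. Its sign differed from the brightest probe in scurred minus polled (0.03) and in male minus female (0.03).

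The genes with levels most like ACTG2 over the 11 animals, of 11578 named genes tested, were CDH16 (Pearson r 0.932), LMO3 (0.904), DMPK (0.903), MYL9 (0.894) and PIAS1 (0.882). Without horned animal 1 and polled animal 4, the 2 farthest for ACTG2, these became 0.783, 0.764, 0.885, 0.855 and 0.893. MYL9 encodes the regulatory light chain that MYLK phosphorylates. Its fitted differences were −0.62 for polled and −0.70 for scurred against horned, near those of ACTG2. ACTA2 ranked 7 and CNN1 16 by likeness to ACTG2, and MYLK 212. For MYH11 the 5 most alike were CNN1 (0.914), MYLK (0.913), SART3 (0.913), THRA (0.903) and ACTA2 (0.9), and without scurred animal 1 and horned animal 2 they had 0.87, 0.79, 0.979, 0.785 and 0.87. So 3 of the 5 closest to MYH11 were other genes of the set, and none of the 5 closest to ACTG2. The r values are descriptions over 11 animals with no test.

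Other genes of the smooth muscle cell were taken from 5 lists, and none of their 64 tested genes was called by limma in the horn-type comparisons. At an unadjusted p under 0.05 there were 8 of 64 for polled against horned animals, of both signs, beside 9.3% of all probes, and 7 of 64 for scurred against horned animals beside 3.73%. Of 10 filament partners, which include tropomyosins and light chains, 7 were lower in polled and 5 in scurred against horned animals (medians −0.206 and −0.0562). MYH10, a non-muscle myosin heavy chain, had the lowest p in polled animals, with −0.52 (SE 0.142), and TPM4 had −0.25 (SE 0.154). In scurred animals they were TPM2 at −0.67 (SE 0.319) and CNN2 at 0.53 (SE 0.282). Of 20 genes of cytoskeleton and adhesion, 13 were lower in polled and 16 in scurred animals (medians −0.233 and −0.442). ITGA7, an integrin chain that anchors muscle cells to laminin, stood at −0.60 (SE 0.14) and PGM5 at −0.97 (SE 0.357) in scurred animals. In polled animals VCL (vinculin) stood at −0.32 (SE 0.158) and LPP at −0.22 (SE 0.119).

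Of 15 tested genes of calcium and phosphatase control, 12 were lower in polled and 15 of 15 in scurred against horned animals (medians −0.16 and −0.319). PPP1R12A, the targeting subunit of myosin phosphatase, stood at −0.58 (SE 0.238) in polled and −0.69 (SE 0.227) in scurred animals. KCNMB1, the beta subunit of the large-conductance calcium-activated potassium channel, stood at −0.69 (SE 0.228) in polled animals. KCNMA1, its pore subunit, stood at −0.87 (SE 0.39) in scurred animals. Of 9 tested transcription regulators, 5 were lower in polled and 7 in scurred animals. SRF, the factor that switches on contractile genes, stood at −0.32 (SE 0.204) and HEY2 at −0.44 (SE 0.255) in polled animals. KLF4, which restrains the contractile programme in smooth muscle, stood at 1.21 (SE 0.633) and GATA6 at −0.19 (SE 0.117) in scurred animals. Which cells of the biopsy the KLF4 signal came from was not tested. MYOCD, the main coactivator of SRF in smooth muscle, was well above background in 0 of 11 animals.

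Of the 10 tested receptors that act on smooth muscle tone, 5 were lower in polled and 7 in scurred against horned animals, so the list as a whole had no common direction in polled animals. ADRA1D, an alpha-1 adrenergic receptor that contracts smooth muscle, stood at −0.72 (SE 0.135, adjusted p 0.388 by limma) in polled and −0.46 (SE 0.129) in scurred animals. AGTR1, an angiotensin II receptor, went the other way, at 1.18 (SE 0.301, adjusted p 0.463 by limma) in polled and 0.34 (SE 0.286) in scurred against horned animals. OXTR, the oxytocin receptor, stood at 0.42 (SE 0.184) in polled and −0.25 (SE 0.175) in scurred against horned animals. Between scurred and polled animals OXTR stood at −0.67 (SE 0.179) and AGTR1 at −0.84 (SE 0.292).

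In that comparison MYH10 stood at 0.54 (SE 0.138), TPM4 at 0.39 (SE 0.149), ITGA7 at −0.65 (SE 0.142) and ITPR1 at −0.53 (SE 0.237). At the horn site against the control site, the counts of lower genes were 7 of 10 for filament partners, 11 of 19 for cytoskeleton and adhesion, 6 of 15 for calcium and phosphatase control, 5 of 9 for transcription and 5 of 10 for receptors. TPM1 stood at 1.18 (SE 0.391) and TPM2 at −0.33 (SE 0.15), KLF4 at −0.87 (SE 0.151), GUCY1A1 at 0.52 (SE 0.149) and PTGER3 at −0.43 (SE 0.116). TPM1 is expressed in striated as well as smooth muscle, and which cells its signal came from was not tested.

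Markers of other cells were taken from 7 further lists, and their part in these results was not tested. None of their 71 tested genes was called by limma between horn types or sexes, and none of 69 at the sites. At an unadjusted p under 0.05 there were 11 of 71 for polled against horned animals, beside 9.3% of all probes. There were 4 of 71 for scurred against horned animals beside 3.73%, and 4 of 69 at the sites beside 4.71%. Keratin genes KRT5 and KRT14 and collagen genes COL1A1, COL1A2 and COL3A1 were well above background in all 11 animals, which matches a biopsy of epidermis and dermis. Skeletal muscle genes were present too, with ACTA1 well above background in 11 of 11 animals at log2 levels from 9.03 to 17.31. Of 15 tested skeletal muscle genes, 15 were higher in polled (median 1.55) and 15 in scurred (median 1.43) against horned animals. At the horn site 13 of 13 were higher than at the control site (median 2.25), led by MYH1 at 3.33 (SE 0.292). The site median of this list was 0.431 in polled animal 3 and 3.53 in scurred animal 2. The 8 smooth muscle genes thus lay on the other side of 0 from the skeletal muscle genes against horned animals and at the horn site. In scurred minus polled animals both medians were below 0, at −0.274 for the 8 genes and −0.232 for skeletal muscle. The same held in male minus female, at −0.147 and −1.59. By animal the skeletal muscle list stood from −3.84 (horned animal 3) to 4.18 (polled animal 4). Its median level correlated with that of the 8 genes at 0.0464 over the 11 animals.

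Of 13 tested endothelial genes, 12 were lower in polled (median −0.266) and 12 in scurred animals (median −0.244), with KDR, a receptor for vascular endothelial growth factor, at −0.68 (SE 0.268) and −0.59 (SE 0.255). At the horn site the mean of the 2 animals was higher for 13 of 13 endothelial genes (median 0.415), the opposite sign to the 8 genes. That came mostly from scurred animal 2, with a median of 0.859, while polled animal 3 had 0.0117. Of 9 tested pericyte genes, 8 were lower in polled and 6 in scurred animals, NOTCH3 standing at −0.40 (SE 0.2) and −0.51 (SE 0.191), and 6 of 9 were higher at the horn site. Of 12 fibroblast genes 12 were lower in polled animals (median −1.07) and 6 in scurred animals (median 0.011), and 11 were higher at the horn site. The site medians in polled animal 3 and scurred animal 2 were −0.0339 and 0.364 for pericyte genes and 0.0206 and 0.703 for fibroblast genes. Of 10 keratinocyte genes 9 were higher in polled (median 1.93) and 9 in scurred animals (median 1.74), and 9 were lower at the horn site. In scurred minus polled animals the keratinocyte median was −0.321. KLF4 stood at 0.72 in polled and 1.21 in scurred against horned animals, 0.49 in scurred minus polled animals and −0.87 at the horn site. It was called in none of these comparisons, and the cells its signal came from were not tested. Of 7 genes of sweat gland cells 7 were higher in polled and 7 in scurred animals. The non-muscle actomyosin genes, 5 in number, had medians of 0.0201 and 0.207.

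Levels of the gene lists by animal followed the 8 genes most closely for transcription (Pearson r 0.776), calcium and phosphatase control (0.739) and cytoskeleton and adhesion (0.715). The other lists of the smooth muscle cell followed less closely, with 0.561 for receptors and 0.315 for filament partners. For endothelium r was 0.0838, for pericytes 0.476, for fibroblasts 0.226, for keratinocytes −0.277 and for non-muscle actomyosin −0.543. These are descriptions over 11 animals that share chips. Scurred animal 1, lowest for the 8 genes at −0.88, was also lowest for calcium and phosphatase control (−0.70) and transcription (−0.48), and highest for keratinocytes (2.27). Horned animal 1, highest for the 8 genes, had keratinocyte genes at −1.25 and skeletal muscle genes at −2.48.

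**Figure D4:**
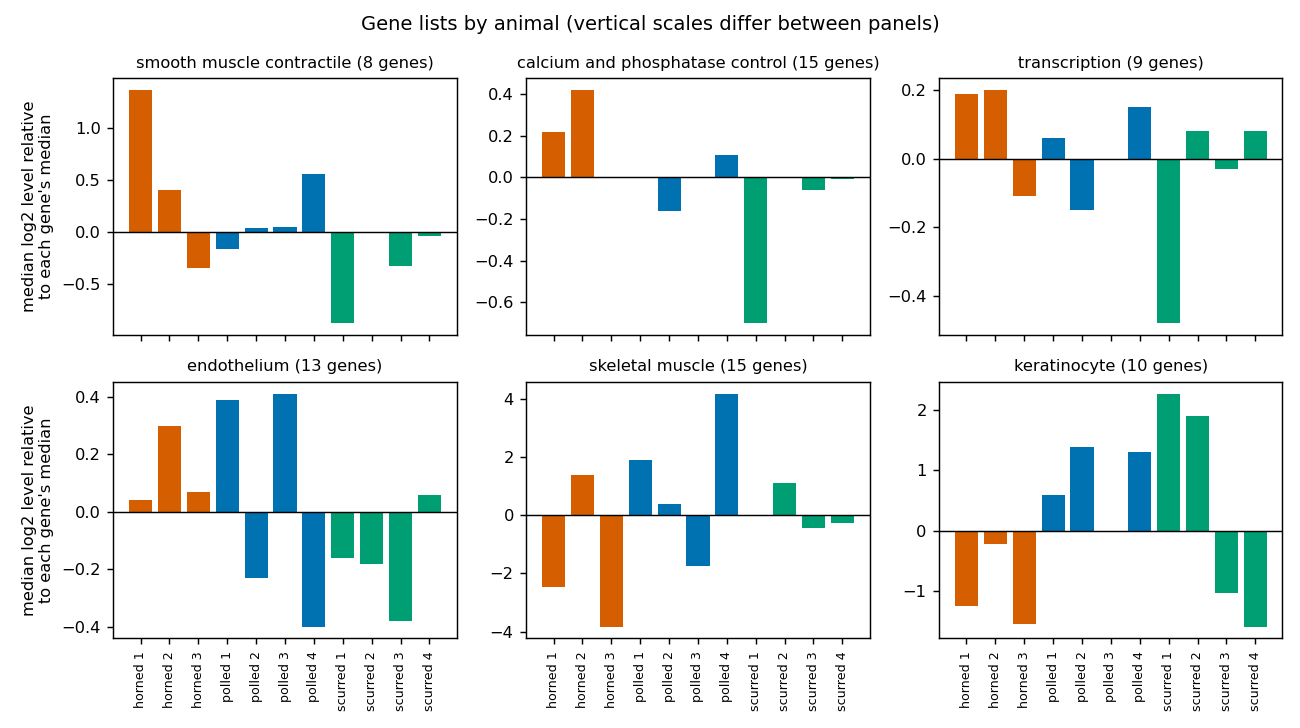
Median log2 level of 6 gene lists in each of the 11 animals, each gene taken relative to its own median over the animals; orange bars are horned, blue polled and green scurred animals, and vertical scales differ between panels. Scurred animal 1 is lowest for the 8 contractile genes, calcium control and transcription and highest for keratinocytes, while endothelial and skeletal muscle genes follow another order.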

How the data were processed

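For every spot, the deposited files hold a mean intensity and a local background in both dyes, on a linear scale. Processed intensities in the same files were background subtracted and dye normalized by the scanner software, per the file headers, and the submitters' processing notes name Agilent Feature Extraction 9.5.1. The deposited series table holds log10 ratios of the 2 dyes, checked against the scanner files. Mean intensities were corrected with normexp (offset 50, which compresses dim genes such as LMOD1, mean log2 intensity 7.26), normalized by loess within arrays, and duplicate spots averaged, with outlier spots left out (limma 3.58.1, R 4.3.3). No spot of the 12 probes was saturated. The array names genes by older symbols, which were updated through RefSeq's gene table.

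On chips 1 to 4, a loop of 4 arrays linked a polled, a scurred and a horned animal, and a dye coefficient was fitted. The 8 differences from the horned animal of the chip were fitted by generalized least squares with terms for polled, scurred and male (5 residual degrees of freedom), then limma's eBayes and Benjamini-Hochberg adjustment over 15712 probes well above background in at least 3 of 11 animals. The chip pairs the animals because they were hybridised together, so it is a block in the fit. On the chips the deviations of polled and scurred animals correlated at 0.239, 0.284, 0.426 and −0.0778 over probes. Chip 5 gave the mean of 2 animals against 0, each the mean of its dye orders, over 15290 probes. The fits were run on simulated data with independent animals, no chip effect and planted differences of 2 and 4 log2. Those are larger than any fitted difference of the 8 genes, so the simulation does not show how the fits perform at the sizes seen here. Between 62.24% and 73.75% of the non-control spots of a channel were well above background, and precision rests on 11 animals.

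Genes were named by rule: the 8 members, their other probes, the 2 genes of lowest p per list and comparison (given where they bear on the 8 genes; 1 receptor gene is not reported here) and the 5 most alike in level. The members and lists were chosen with earlier results of these data known. Alternatives tried were other signals, scaling, filters, probes, terms and left-out chips or animals.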

Additional observations from a re-analysis of the deposited data

Results flagged for a closer look

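In groups of 4 animals, 4 of 40 sets of values for the 8 genes had an end value set apart from the other 3 by more than the 95% limit of Dixon's test. Chance alone gives about 1 in 20, and the sets share animals. ACTG2 had a level of 13.29 in polled animal 4, against 11.59 to 11.69 in the other polled animals. CNN1 had a level of 12.75 in scurred animal 1, against 14.68 to 14.91 in the other scurred animals. LMOD1 stood at −1.47 against its horned partner in scurred animal 1, and at −0.17 to −0.07 in the other 3. ACTA2 was 0.35 higher in the scurred than in the polled animal of chip 2, against −0.78 to −0.63 on the other chips.

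LMOD1 had opposite signs at the horn site against the control site in the 2 animals, −0.22 in polled animal 3 and 0.09 in scurred animal 2. The difference between the animals was not tested.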

How the results depend on the processing

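No alternative called any of the 8 genes. Outside the left-out chips and animals, the 72 refitted gene values in each of the 3 horn-type comparisons kept their direction. Many of these values are not separate checks. A change of filter cannot move a gene's fitted value, and taking the median over all probes could alter only MYLK. With flagged spots kept the medians were those of the main fit. The scanner's processed signals and the deposited series table gave medians equal to each other. With median centring, male minus female turned to 0.0781 for TAGLN and 0.143 for SMTN, and at the sites the median was −0.851 and LMOD1 0.0354. Without the chip as a block, the medians were −0.519 for polled and −0.751 for scurred against horned, −0.264 for scurred against polled and −0.243 for males, where CNN1 turned to −0.139. Leaving out 1 chip or animal in turn gave polled minus horned medians of −0.901 to 0.0379, with ACTG2 −1.2 to 0.0987, CNN1 −1.26 to 0.588, TAGLN −0.726 to 0.152 and MYLK −0.703 to 0.155. In scurred minus horned the median ran from −1.22 to −0.0471, ACTG2 from −1.41 to 0.156 and MYH11 from −2.3 to −0.758. In scurred minus polled the median ran from −1.02 to −0.0427, ACTG2 from −0.997 to 0.236 and LMOD1 from −0.656 to 0.121. In male minus female the median ran from −0.382 to 0.508, ACTG2 from −0.52 to 0.699, ACTA2 −0.633 to 0.209, CNN1 −0.351 to 1.58, MYH11 −0.703 to 0.463, TAGLN −0.317 to 0.563, MYLK −0.494 to 0.37, SMTN −0.208 to 0.512 and LMOD1 −0.213 to 0.504. At the sites each animal alone gave a median of −0.556 and −0.304. The causes were not tested.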
